A study of Homo sapiens with 10 samples.

Results

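This account concerns the nuclear-encoded subunits of respiratory complexes II, III, IV and V, which is ATP synthase, in HEK293 cells, a line made from human embryonic kidney. The members were chosen by name, as 38 genes whose transcripts were looked up in 10 libraries of polyadenylated RNA, and 35 of the 38 were listed among 24994 features. COX7C, COX8A and ATP5F1E had no matched accession and were not analysed here. The listed genes were 4 of 4 in complex II, 9 of 9 in complex III, 8 of 10 in complex IV and 14 of 15 in complex V.

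The cells were grown in DMEM with 10% FCS. Of 4 groups of 2 libraries, lettered A and B, the first received 4-thiouridine (4SU), a uridine analogue built into new RNA, at 1 mM for 12 to 14 h and ultraviolet light at 365 nm (4SU+365 nm cells), and the second received the same 4SU and no light (4SU cells). The third received light at 254 nm and no 4SU (254 nm cells), and the fourth received neither (untreated cells). An siRNA against HuR was transfected for 1 library and an siRNA against GFP, as its control, for another. Whether libraries A and B were separate cultures is not labelled. The p-values carry the scatter of these libraries alone, which may be technical. With 2 libraries against 2, an exact permutation test of a single value cannot give a two-sided p below 0.333, so the tests rest on a model fitted over all features.

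The respiratory chain passes electrons through protein complexes of the inner mitochondrial membrane and pumps protons, and ATP synthase uses the proton gradient to make ATP. Complex II (succinate dehydrogenase) also works in the citric acid cycle, and it is the only one of these complexes with no subunit encoded in mitochondrial DNA. Complex III passes electrons from ubiquinol to cytochrome c, and complex IV (cytochrome c oxidase) passes them to oxygen. Nuclear genes for these subunits are widely known as targets of the transcription factors NRF1 and GABPA, the second of which binds ETS sites.

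The promoters of 4 members are shown. ATP5ME had the highest fold change in both crosslinking comparisons, UQCR11 the highest with 4SU alone and SDHD the lowest after 365 nm. SDHA is shown for its repeated matches and is 1 of 5 members not called after 254 nm. These 4 were chosen after fold changes and matches had been computed. Each is the RefSeq window from 250 bases before to 50 bases after the gene start, on build GRCh38.p14, printed in the direction of the gene. ATP5ME lies at chr4:674227-674526 on the minus strand, UQCR11 at chr19:1605413-1605712 on the minus strand, SDHA at chr5:218070-218369 on the plus strand and SDHD at chr11:112086623-112086922 on the plus strand. Capitals mark matches on either strand to the NRF1 letters GCGCANGCG and to the ETS letters CCGGAAGT, which reads ACTTCCGG where it lies on the other strand.
ATP5ME: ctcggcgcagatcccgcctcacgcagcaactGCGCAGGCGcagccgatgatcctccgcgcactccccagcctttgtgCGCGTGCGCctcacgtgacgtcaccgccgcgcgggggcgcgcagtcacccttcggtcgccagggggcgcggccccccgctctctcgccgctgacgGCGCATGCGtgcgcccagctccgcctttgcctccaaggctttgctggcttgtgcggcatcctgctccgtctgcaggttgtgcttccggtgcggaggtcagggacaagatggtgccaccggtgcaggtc
UQCR11: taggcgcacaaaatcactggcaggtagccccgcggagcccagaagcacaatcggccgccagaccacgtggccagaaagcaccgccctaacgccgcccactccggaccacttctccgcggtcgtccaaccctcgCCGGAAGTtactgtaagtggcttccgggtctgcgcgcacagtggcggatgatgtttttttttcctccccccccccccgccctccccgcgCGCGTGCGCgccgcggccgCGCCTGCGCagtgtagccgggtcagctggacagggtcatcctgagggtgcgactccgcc
SDHA: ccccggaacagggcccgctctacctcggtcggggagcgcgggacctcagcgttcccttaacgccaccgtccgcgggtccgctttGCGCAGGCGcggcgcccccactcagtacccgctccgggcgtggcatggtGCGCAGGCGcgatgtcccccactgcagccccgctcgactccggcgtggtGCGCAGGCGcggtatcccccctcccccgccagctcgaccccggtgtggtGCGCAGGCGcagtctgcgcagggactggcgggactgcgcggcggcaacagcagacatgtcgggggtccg
SDHD: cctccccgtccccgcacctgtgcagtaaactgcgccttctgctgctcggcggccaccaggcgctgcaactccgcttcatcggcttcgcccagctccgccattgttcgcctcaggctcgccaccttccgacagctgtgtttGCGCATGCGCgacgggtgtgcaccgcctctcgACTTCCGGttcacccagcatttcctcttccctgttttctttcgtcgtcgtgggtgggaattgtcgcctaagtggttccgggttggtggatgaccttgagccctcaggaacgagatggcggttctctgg
The SDHA window held 4 equally spaced NRF1 matches, which begin at positions -166, -117, -68 and -19 from the gene start. ATP5ME held NRF1 matches at -219, -173 and -78. SDHD held overlapping NRF1 matches on both strands at -110 and -109 and an ETS match at -78. UQCR11 held NRF1 matches at -28 and -9 and an ETS match at -117.

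Of the 35 listed members, 27 had such a window. SDHC, UQCRB, CYC1, COX6C, ATP5F1B, ATP5F1D, ATP5MC3 and ATP5MF were not matched. The NRF1 letters stood in 12 of the 27 windows (44.4%), against 7.52% of all 35116 windows in the table and 15.4% of the 9252 windows of features tested here. With 1 further C at their end they stood in 33.3% of member windows, 5.78% of all windows and 12% of tested ones. The 8 letters GCGCATGC, which overlap the NRF1 letters, stood in 29.6% of member windows, 3.05% of all windows and 5.64% of tested ones. The ETS letters stood in 6 member windows (22.2%), against 4.14% of all and 8.9% of tested ones. The GC box letters GGGGCGGGG stood in 2 member windows (7.41%), against 15.7% of all and 29% of tested ones. All letters were searched on both strands. These are letter matches and were not tested as sites. NRF1 matches stood in the windows of both ATP5ME and SDHD, the members with the highest and the lowest fold change after 365 nm.

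The libraries held 2238569 to 3099769 tags in the 4 groups and 8688262 to 9016803 in the siRNA pair. Of the markers looked up for this cell line, KRT18, KRT19 and NEFL stood at 18.7 tags per 1000000 or more in every library. VIM stood at 0 to 15.5, NEFM at 0.416 to 9.78, PAX2 at 0 to 6.22 and KRT8 at 0 to 1.31, and the leukocyte marker PTPRC, the fibroblast markers COL1A2 and DCN and the endothelial marker PECAM1 were at or near 0. CD3E and ALB were not listed.

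Member transcripts took a larger part of the crosslinked libraries. Their share of all tags was 2.42% and 2.17% in 4SU+365 nm cells, against 0.997% and 0.671% in 4SU cells. It was 1.80% and 2.26% in 254 nm cells, against 0.806% and 0.686% in untreated cells. The groups did not overlap in either comparison. In bulk RNA, fewer copies of other transcripts and more copies of these give the same share and cannot be told apart.

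The increase in share was carried by complexes III, IV and V. Complex IV had 0.93% and 0.759% of tags in 4SU+365 nm cells, against 0.322% and 0.203% in 4SU cells, and complex V had 0.841% and 0.801%, against 0.354% and 0.238%. Complex III had 0.611% and 0.551% in 4SU+365 nm cells, against 0.274% and 0.188% in 4SU cells. Complex II overlapped, with 0.0413% and 0.0629% in 4SU+365 nm cells, against 0.0469% and 0.0426% in 4SU cells. After 254 nm light complex II had 0.0647% and 0.062% in 254 nm cells, against 0.0565% and 0.053% in untreated cells, a separation far smaller than the 0.611% and 0.81%, against 0.237% and 0.193%, of complex IV.

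**Figure D1:**
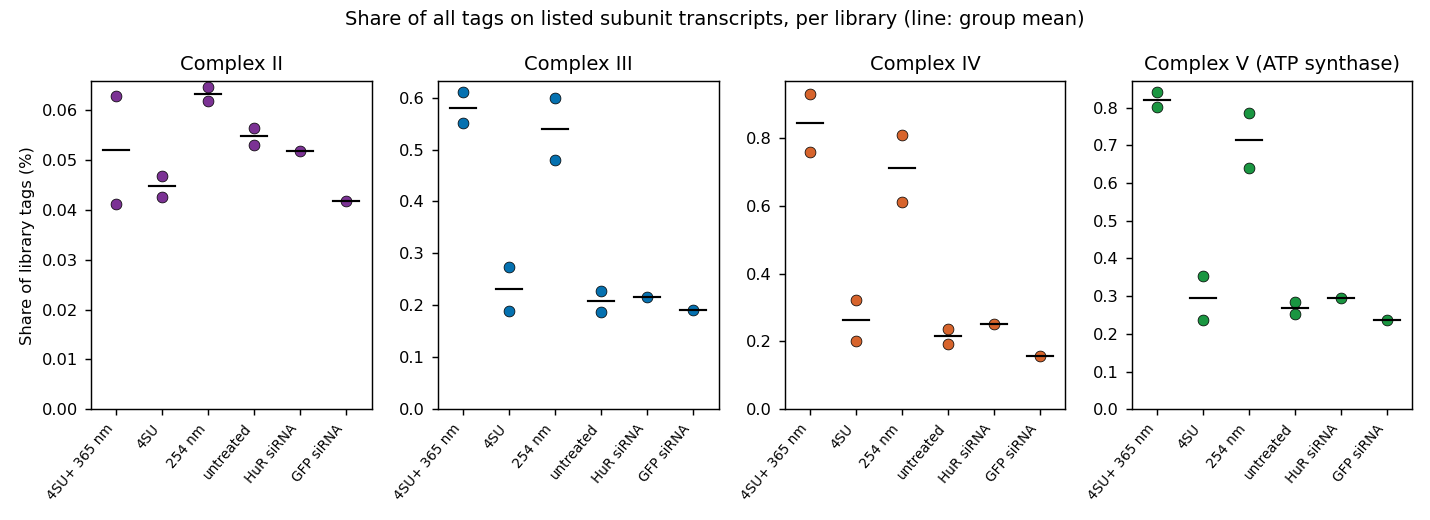
Share of each library's tags (%) on the listed subunits of complexes II, III, IV and V. Points are libraries and lines are group means; each panel has its own scale. Both crosslinked groups lie above their uncrosslinked groups for complexes III, IV and V, and the complex II points of 4SU+365 nm cells lie on both sides of the 4SU points.

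Transcript composition moved with these shares. Weighted by tags, the median length of a transcript was 1147 and 1431 nt in 4SU+365 nm cells, against 2373 and 2850 nt in 4SU cells, and 1534 and 1305 nt in 254 nm cells, against 2666 and 3029 nt in untreated cells. Cytosolic ribosomal protein genes took 32.1% and 22.7% of tags in 4SU+365 nm cells, against 10.1% and 5.9% in 4SU cells. They took 18.2% and 24.1% in 254 nm cells, against 6.61% and 5.06% in untreated cells. Their part in the results below was not tested, and fold changes are therefore given also with the trend on transcript length removed and on library totals.

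After 4SU and 365 nm light, nearly every subunit stood higher than with 4SU alone. Of the 35 listed members, 34 passed the filter on low counts, and 33 of these 34 rose (edgeR quasi-likelihood test, adjusted p under 0.05), none fell and SDHD was not called. Over all 13731 features tested, 26.1% were called higher and 33.8% lower. The median log2 fold change was 3.35 over the members and -0.50 over all features. The complex medians were 1.91 in complex II, 3.24 in III, 3.62 in IV and 3.43 in V. The complex II median rests on 4 genes that ran from 0.08 to 2.87, and the difference between complexes was not tested. In both libraries of 4SU+365 nm cells, 33 of 34 members lay above both 4SU libraries in normalised counts per 1000000 tags (CPM), against 33.1% of all features.

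The scale used decides part of this result. Scaled by library totals instead of TMM factors, the median over all features was -2.40, 26 members were called higher and 2 lower, and the member median was 1.40. The 2 called lower were SDHD at -1.79 and UQCRFS1 at -0.84, and on that scale 7.42% of all features were called higher and 72.6% lower. SDHA, SDHB, CYC1, ATP5F1A, ATP5F1C and ATP5PB were called in neither direction there. With the length trend removed, 32 members were called higher, none lower, and the median was 1.85, where 24.3% of all features were called higher.

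After 254 nm light, 29 of 34 members rose against untreated cells and none fell, where 25.2% of all features were called higher and 28% lower. The median log2 fold change was 2.41 over the members and -0.14 over all features. The complex medians were 0.54 in complex II, 2.38 in III, 2.59 in IV and 2.36 in V. SDHA, SDHC, SDHD, UQCRC2 and ATP5F1A were not called. On normalised CPM, 32 of 34 members lay above both untreated libraries in both 254 nm libraries, against 35.7% of all features.

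This comparison lost more with the length trend removed: 14 members were called higher and 1 lower (SDHD at -1.17), the median was 0.87, and 17.3% of all features were called higher and 17.5% lower. With library totals, 26 were called higher and 1 lower (ATP5F1A at -1.12), the median was 1.498 over the members and -0.998 over all features, and 10.1% of all features were called higher and 47.1% lower. Complex IV kept 8 of 8 called genes on library totals and 2 of 8 with the length trend removed.

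4SU alone moved the subunits little. None of the 34 tested members passed edgeR's test against untreated cells, where 3.85% of all features were called higher and 3.69% lower. UQCRC2 alone had an unadjusted p under 0.05, and DESeq2 called 0. Without untreated library A, UQCR11 and ATP5F1A were called higher, and without 4SU library B UQCR11 alone was. The median log2 fold change was 0.10 over the members and 0.02 over all features. The fold changes ran from -0.79 for UQCRC2 to 0.94 for UQCR11, with standard errors (SE) of 0.333 to 0.469, and a p that misses the threshold does not show that the levels were equal. With the length trend removed the median was -0.06 over the members and 0.02 over all features. On library totals it was 0.12 and 0.07.

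**Figure D2:**
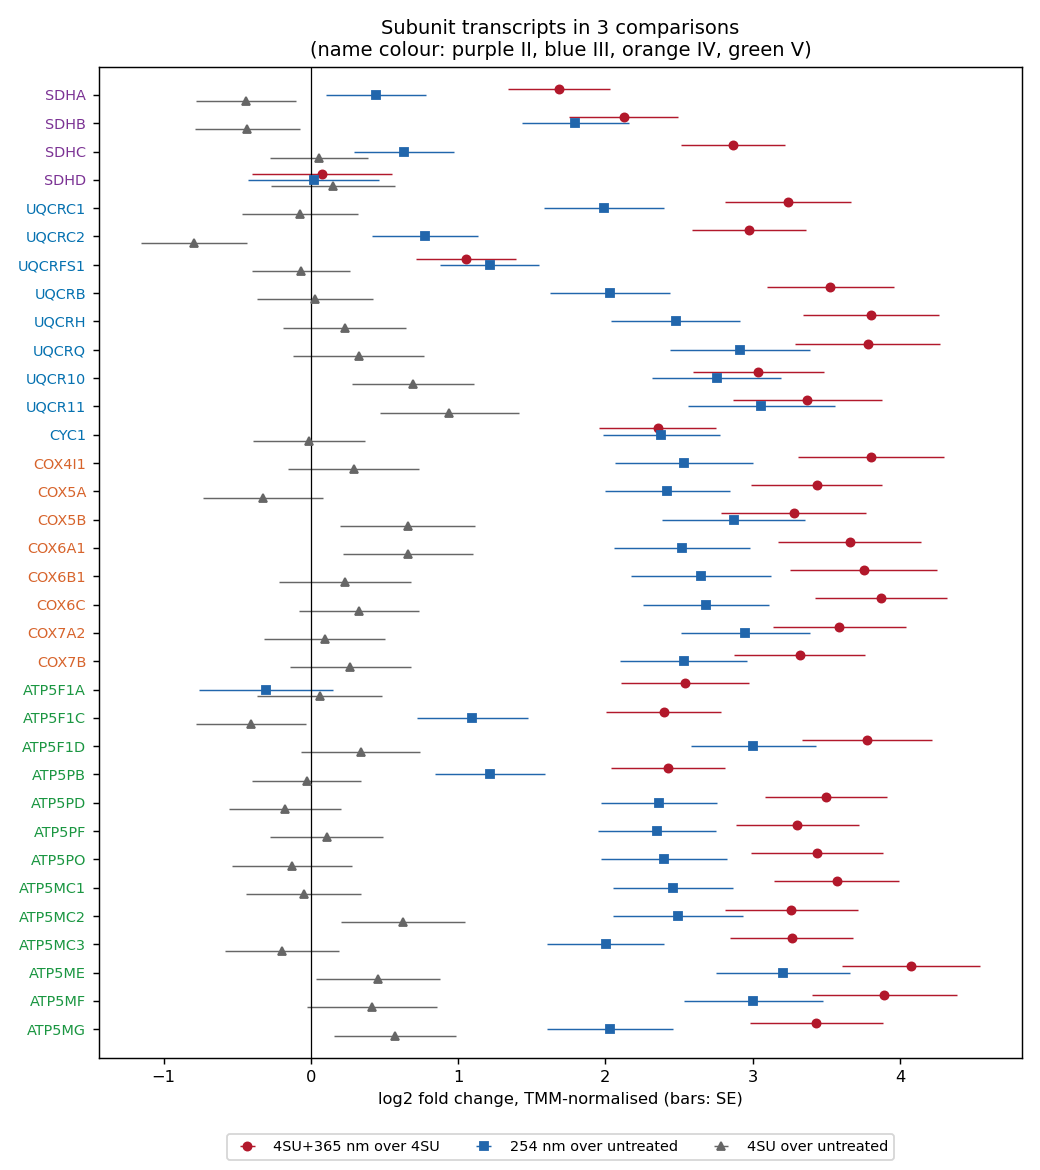
Log2 fold change of each tested subunit in 3 comparisons, with bars of 1 SE. Circles (4SU+365 nm over 4SU) run up to 4.08 for ATP5ME, squares (254 nm over untreated) up to 3.21 for the same gene, and triangles (4SU over untreated) lie on both sides of 0.

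Complex II takes electrons from succinate: SDHA carries the flavin, SDHB the iron-sulfur clusters, and SDHC and SDHD anchor them in the membrane. SDHC had 390.8 and 433.5 CPM in 4SU+365 nm cells, against 68.25 and 45.22 in 4SU cells, a log2 fold change of 2.87 (SE 0.352, adjusted p 9.2e-09). It had 85.42 and 83.5 CPM in 254 nm cells, against 57.76 and 51.1 in untreated cells, where its fold change of 0.63 was not called (adjusted p 0.109). On normalised CPM the SDHC groups did not overlap in either comparison, and on library totals its fold change after 254 nm was -0.23, not called. SDHA, whose tags are split with other transcripts, had 309.9 and 439.1 CPM in 4SU+365 nm cells, against 110.3 and 122.9 in 4SU cells (log2 fold change 1.69, SE 0.348, adjusted p 8.68e-05), and on library totals this turned to -0.21. In 254 nm cells SDHA had 237.6 and 192.4 CPM, against 163.3 and 152.5 in untreated cells, and was not called (log2 fold change 0.45, adjusted p 0.272).

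SDHB rose in both comparisons, the only complex II gene to pass in each. It had 404.2 and 373.4 CPM in 4SU+365 nm cells, against 110.3 and 68.21 in 4SU cells, and 321.2 and 513.2 in 254 nm cells, against 117.3 and 123.2 in untreated cells. Its log2 fold changes were 2.12 after 365 nm and 1.79 after 254 nm (adjusted p 6.39e-06 and 7.65e-05). The call after 365 nm was lost on library totals (0.21), and that after 254 nm with the length trend removed (0.33). SDHD was the only tested member not called after 365 nm, and 1 of 5 not called after 254 nm. It had 8.983 and 16.08 CPM in 4SU+365 nm cells, against 16.49 and 8.479 in 4SU cells, and 14.09 and 8.301 in 254 nm cells, against 10.76 and 11.45 in untreated cells. The groups overlapped in both comparisons, and the log2 fold changes were 0.08 (SE 0.473) and 0.02 (SE 0.446). SDHD rested on 8 and 23 tags in 4SU+365 nm cells, against 58 and 45 in 4SU cells, so its precision is low.

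In complex III, UQCRC1 and UQCRC2 are the large core proteins, UQCRFS1 is the Rieske iron-sulfur protein and CYC1 carries the heme of the cytochrome c1 subunit. All 9 genes rose after 365 nm and 8 after 254 nm. UQCRC2 had 897.2 and 978.8 CPM in 4SU+365 nm cells, against 123.7 and 115.1 in 4SU cells (log2 fold change 2.97, SE 0.387, adjusted p 2.7e-08). It had 320.3 and 388.2 CPM in 254 nm cells, against 182.9 and 231 in untreated cells, where the change of 0.78 missed the threshold (adjusted p 0.0667). On normalised CPM the UQCRC2 groups did not overlap in either comparison. With library totals its fold change after 254 nm was -0.10, not called. The partner core gene UQCRC1 rose by 3.24 on the log2 scale after 365 nm and by 1.99 after 254 nm.

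UQCRFS1 had the smallest change of complex III after 365 nm, with 186.4 and 227.9 CPM in 4SU+365 nm cells, against 106.9 and 92.71 in 4SU cells, a log2 fold change of 1.06 (SE 0.339, adjusted p 0.00742). This call was lost without library B of 4SU+365 nm cells or library B of 4SU cells, and turned to -0.84 on library totals and to -0.09 with the length trend removed. It had 196.3 and 289.6 CPM in 254 nm cells, against 98 and 111.3 in untreated cells, a fold change of 1.22 that was -0.19 with the length trend removed and was not called without library B of 254 nm cells. CYC1, with 665.9 and 734.8 CPM in 4SU+365 nm cells and 163.5 and 110.8 in 4SU cells, rose by 2.35 after 365 nm and 2.38 after 254 nm. On library totals these were 0.46, not called, and 1.48, called. On that scale edgeR called CYC1 lower in 4SU+365 nm cells than in 254 nm cells (-1.02, adjusted p 0.0251). The median over all features there was -1.08, and 42.9% of features were called lower. With TMM factors CYC1 was at -0.04 in that comparison, not called. In 254 nm cells CYC1 had 601.6 and 837 CPM, against 180.3 and 96.09 in untreated cells.

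The small accessory subunits of complex III had larger changes than the Rieske protein. UQCRQ, with split tags, had 3444 and 2004 CPM in 4SU+365 nm cells, against 281.5 and 115.1 in 4SU cells (log2 fold change 3.78, adjusted p 2.89e-08). It had 851.5 and 1532 CPM in 254 nm cells, against 181.3 and 134.9 in untreated cells (log2 fold change 2.91). Both UQCRQ comparisons separated without overlap. UQCR10 had 2099 and 1420 CPM in 4SU+365 nm cells, against 271 and 157.3 in 4SU cells, and 605.2 and 1186 in 254 nm cells, against 146 and 119 in untreated cells, with fold changes of 3.04 and 2.76. UQCR11 had 2617 and 1119 CPM in 4SU+365 nm cells, against 272.4 and 88.94 in 4SU cells, and 683.8 and 882.4 in 254 nm cells, against 136.2 and 51.1 in untreated cells, with fold changes of 3.37 and 3.06. UQCR11 also shows how far libraries of a group can lie apart: the higher 4SU library exceeded both untreated libraries and the lower one lay between them, and its fold change of 0.94 was not called (adjusted p 0.232), but passed without 4SU library B or without untreated library A. UQCRB and UQCRH, both with split tags, rose by 3.53 and 3.80 after 365 nm and by 2.03 and 2.48 after 254 nm.

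Complex IV moved most evenly. Its 8 listed genes are nuclear subunits that surround the catalytic core encoded in mitochondrial DNA, and the log2 fold changes lay between 3.28 and 3.87 after 365 nm and between 2.42 and 2.95 after 254 nm, each called. COX6B1, which lies on the side of the complex facing cytochrome c, had 6214 and 3964 CPM in 4SU+365 nm cells, against 440.5 and 313.5 in 4SU cells (log2 fold change 3.75, SE 0.498, adjusted p 3.96e-08). It had 1499 and 2522 CPM in 254 nm cells, against 341.8 and 300.2 in untreated cells (log2 fold change 2.65, adjusted p 1.47e-05). The lowest crosslinked library of COX6B1 was well above the highest of the 4SU and untreated libraries.

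COX7B, the complex IV gene with the lowest mean CPM and with split tags, showed the same order of groups. It had 1307 and 832 CPM in 4SU+365 nm cells, against 152.7 and 62.18 in 4SU cells, and 346.7 and 682.7 in 254 nm cells, against 76.49 and 101.7 in untreated cells, with fold changes of 3.32 and 2.53. COX5A had 1928 and 1721 CPM in 4SU+365 nm cells, against 190.2 and 147 in 4SU cells, and 757.4 and 1501 in 254 nm cells, against 200.2 and 221.7 in untreated cells. COX5A and COX5B lie on the matrix side of the complex and COX7A2 in the membrane. COX5B had 2943 and 1725 CPM in 4SU+365 nm cells, against 356.3 and 125.5 in 4SU cells, and 847.8 and 1383 in 254 nm cells, against 207.4 and 97.42 in untreated cells. COX7A2 had 1519 and 1061 CPM in 4SU+365 nm cells, against 151.3 and 63.69 in 4SU cells, and 552.5 and 998.6 in 254 nm cells, against 104.2 and 96.62 in untreated cells. None of these groups overlapped within a comparison. COX4I1, COX6A1 and COX6C rose by 3.80, 3.66 and 3.87 after 365 nm and by 2.53, 2.52 and 2.68 after 254 nm.

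The catalytic head of ATP synthase is built from ATP5F1A and ATP5F1B, which bind nucleotides, around a central stalk of ATP5F1C and ATP5F1D. ATP5F1B had 2 to 10 tags in any library and did not pass the filter. ATP5F1A had 12 to 145 tags. These values rest on 1 listed accession each. Of all transcripts 8985 could not be named, so tags of both genes may stand elsewhere, and the values may not be the levels of the whole genes. ATP5F1A had 153.8 and 76.21 CPM in 4SU+365 nm cells, against 24.74 and 14.7 in 4SU cells (log2 fold change 2.54, SE 0.435, adjusted p 4.82e-06). It had 21.36 and 8.79 CPM in 254 nm cells, against 28.88 and 7.985 in untreated cells, where the groups overlapped and the fold change of -0.30 (SE 0.453) was not called. ATP5F1A was the one member below 0 after 254 nm.

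The stalk gene ATP5F1C had 933.1 and 786.6 CPM in 4SU+365 nm cells, against 195.4 and 131.7 in 4SU cells, and 376.2 and 550.8 in 254 nm cells, against 184.4 and 248.9 in untreated cells. Its fold changes were 2.40 and 1.10, and the second turned to -0.38 with the length trend removed and was lost without library B of 254 nm cells or library A of untreated cells. ATP5F1D rose by 3.77 and 3.004. The peripheral stalk holds the head still against the rotor. ATP5PD, with split tags, had 1103 and 814.5 CPM in 4SU+365 nm cells, against 101.5 and 68.02 in 4SU cells, and 358.5 and 626 in 254 nm cells, against 89.23 and 102.2 in untreated cells. ATP5PO had 2072 and 1753 CPM in 4SU+365 nm cells, against 225.2 and 128.3 in 4SU cells, and 741.5 and 1294 in 254 nm cells, against 190 and 195.9 in untreated cells. Both stalk genes rose in both comparisons, by 3.50 and 3.44 after 365 nm and by 2.36 and 2.40 after 254 nm. Neither was called after 254 nm with the length trend removed (0.63 and 0.75). ATP5PB and ATP5PF changed by 2.43 and 3.30 after 365 nm and by 1.22 and 2.35 after 254 nm, each called. ATP5PB was not called on library totals in either comparison (0.53 after 365 nm and 0.33 after 254 nm). After 254 nm it was also not called with the length trend removed (0.76) or without library B of 254 nm cells.

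ATP5MC1, ATP5MC2 and ATP5MC3 encode precursors of the same mature subunit c, which forms the rotor ring. ATP5MC1 had 1482 and 1256 CPM in 4SU+365 nm cells, against 133.7 and 96.85 in 4SU cells, and 477.5 and 832.6 in 254 nm cells, against 130.5 and 107.8 in untreated cells. ATP5MC2 had 2887 and 2095 CPM in 4SU+365 nm cells, against 317.1 and 202 in 4SU cells, and 802 and 1092 in 254 nm cells, against 215.3 and 120.8 in untreated cells. ATP5MC3 had 1419 and 1189 CPM in 4SU+365 nm cells, against 169.5 and 101.9 in 4SU cells, and 501.6 and 742.7 in 254 nm cells, against 163.1 and 147.2 in untreated cells. All 3 genes rose in both comparisons, on deposited transcripts of 663, 1178 and 2741 nt. The log2 fold changes were 3.57, 3.26 and 3.27 after 365 nm and 2.46, 2.49 and 2.003 after 254 nm. They were, after removal of the length trend, 1.76, 2.08 and 3.52 after 365 nm and 0.78, 1.11 and 2.05 after 254 nm, where ATP5MC1 was not called (adjusted p 0.0556). Differences between these genes were not tested.

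Among the membrane subunits beside the rotor, ATP5ME had 2569 and 1453 CPM in 4SU+365 nm cells, against 157.3 and 81.59 in 4SU cells (log2 fold change 4.08, SE 0.472, adjusted p 3.31e-09). It had 556.1 and 1049 CPM in 254 nm cells, against 88.64 and 85.17 in untreated cells (log2 fold change 3.21, SE 0.454, adjusted p 5.5e-07). These were the largest fold changes of any member in the 2 comparisons, on the shortest member transcript of 368 nt. ATP5MF, with split tags, had 4355 and 2602 CPM in 4SU+365 nm cells, against 313.9 and 154.7 in 4SU cells, and 1117 and 1698 in 254 nm cells, against 199.6 and 150.9 in untreated cells. ATP5MG, also with split tags, rose by 3.43 and 2.03.

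**Figure D3:**
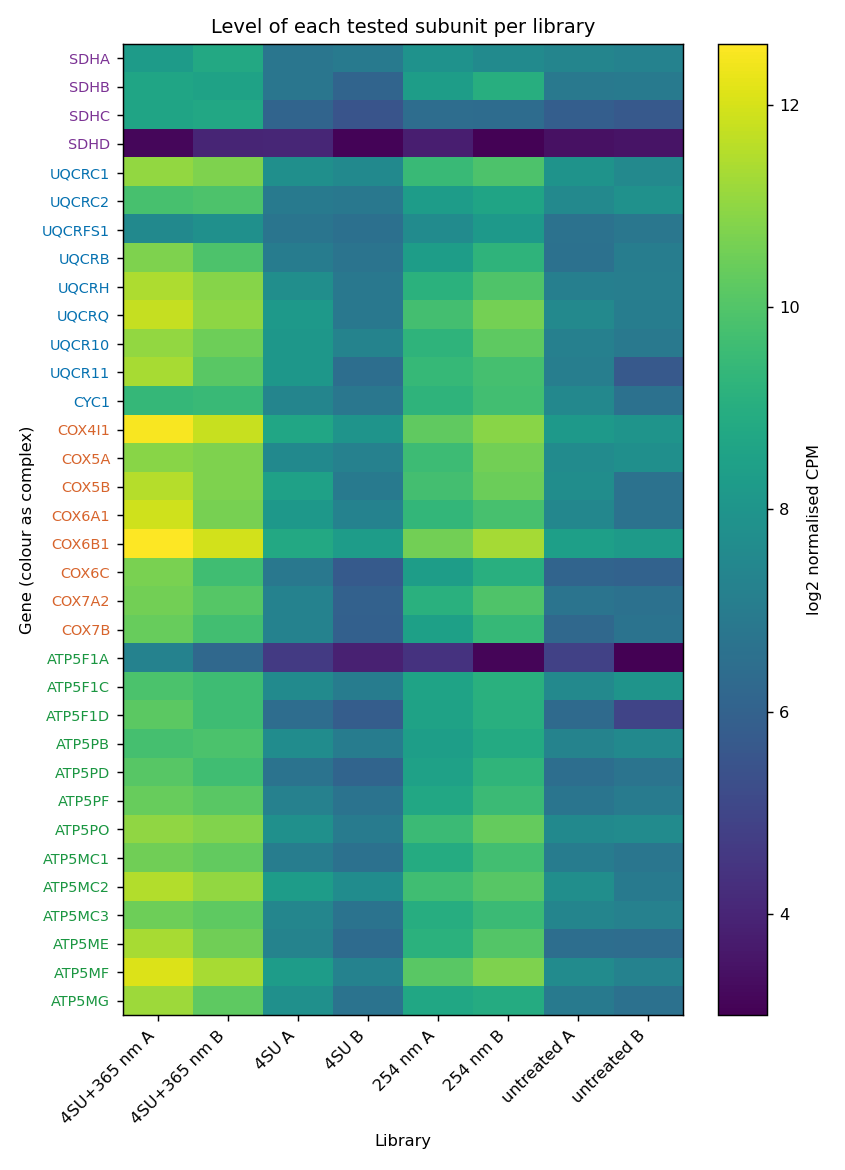
Log2 normalised CPM of each tested subunit (rows) in the 8 libraries (columns). The columns of 4SU+365 nm cells are lightest in almost every row and the 254 nm columns follow. SDHD is dark throughout, and ATP5F1A is dark outside the columns of 4SU+365 nm cells.

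Levels of different genes are compared per length, as the authors' deposited expression value, tags per 100 nt of transcript per 1000000 tags. COX6B1 was the highest member in all 4 groups, at 370.2 ± 40.1 in 4SU+365 nm cells, 106 ± 16.1 in 4SU cells, 297 ± 59.4 in 254 nm cells and 88.6 ± 10.1 in untreated cells (SD, n = 2 each). ATP5MF was second in all 4, at 284 ± 43.8 in 4SU+365 nm cells and 54.7 ± 12 in untreated cells. These 2 neighbours in the order differed by more than the SD of either in both of those groups. ATP5F1B, ATP5F1A, SDHD and SDHC held the last 4 places in all 4 groups, where the places of ATP5F1A and ATP5F1B are those of their 1 listed accession. SDHD was at 0.411 ± 0.24 in 4SU+365 nm cells and 1.45 ± 0.542 in 4SU cells, and at 0.734 ± 0.378 in 254 nm cells and 1.28 ± 0.0269 in untreated cells.

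Member transcripts are short, with deposited lengths of 368 to 4433 nt and a median of 1162 nt, against a median of 2753 nt over all tested features. A length at or below that member median was held by 12.2% of all features. Across features the log2 fold change fell with log2 length, with a Pearson correlation of -0.43 after 365 nm and -0.62 after 254 nm. Across the 34 members it was -0.42 and -0.60, a description over genes that share the same libraries. The highest value with the length trend removed was that of UQCRB, whose 4433 nt make it the longest member: 4.19 after 365 nm and 2.98 after 254 nm. UQCRB has split tags, and its deposited length decides how far the correction moves it.

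**Figure D4:**
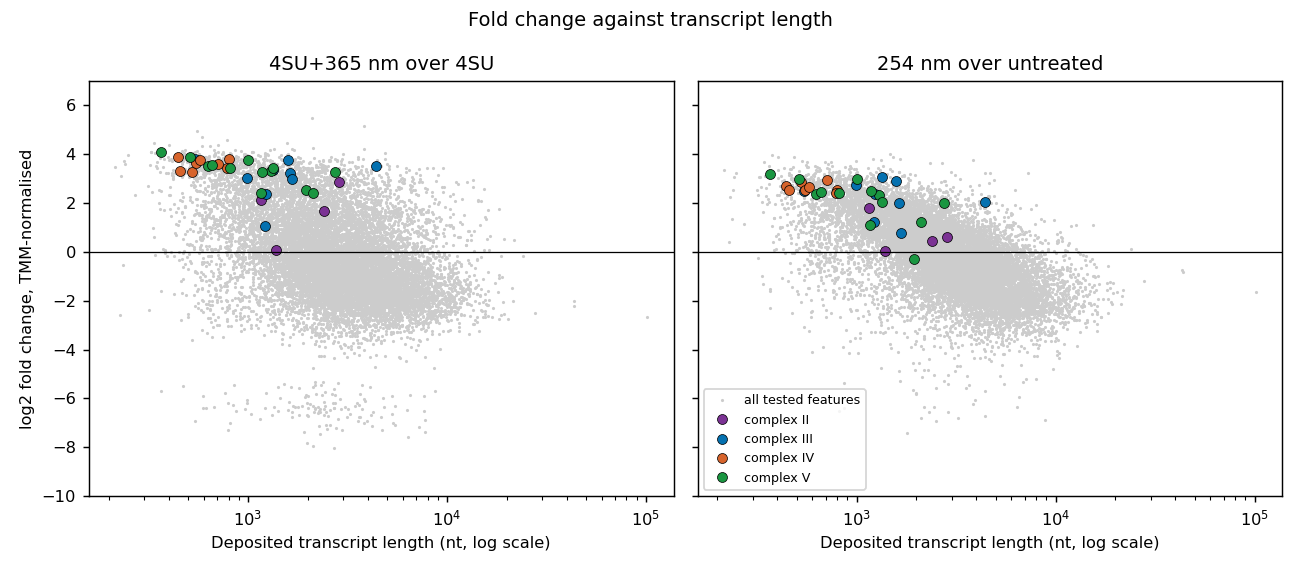
Log2 fold change against deposited transcript length (log scale) for all 13731 tested features (grey) and the 34 tested members (colours). Members lie mostly left of the 2753 nt median and near the upper edge of the cloud, with SDHD near 0 in both panels and ATP5F1A below 0 after 254 nm.

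The whole procedure of 4SU and 365 nm light was also set against untreated cells, which serve as controls of the 4SU and the 254 nm comparisons as well. Of 34 members 33 rose, none fell and SDHD was not called, where 26.3% of all features were called higher. The median log2 fold change was 3.54 over the members and -0.40 over all features. ATP5ME had the largest value, 4.53, and SDHD the smallest, 0.23 (adjusted p 0.698). On library totals 25 were called higher and 2 lower, where 7.63% of all features were called higher and 70.4% lower. The median there was 1.62 over the members and -2.25 over all features. With the length trend removed the member median fell to 1.83, against -0.28 over all features.

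Between the crosslinked groups, 22 of 34 members were higher in 4SU+365 nm cells than in 254 nm cells and none lower, where 15.2% of all features were called higher. The median was 1.14 over the members and -0.10 over all features. With the length trend removed these medians were 0.99 and -0.10, and some of the calls were lost. On library totals 2 members were called higher and 3 lower, where 4.6% of all features were called higher and 42.9% lower, with a member median of 0.12 and a median over all features of -1.08, so on that scale most members did not differ detectably. With TMM factors, most of these calls were lost without library A of 4SU+365 nm cells, and most without library A of 254 nm cells. Some were also lost without library B of either group. Shares of all features called in those fits are not given here. The largest difference was that of ATP5F1A, 2.91 (SE 0.46), on its 1 listed accession. The 12 members not called were SDHA, SDHB, SDHD, UQCRFS1, UQCR10, CYC1, COX5A, COX5B, COX7A2, ATP5F1C, ATP5PD and ATP5PO, whose values in every library are given above. Of these, SDHB, UQCRFS1 and CYC1 lay below 0, at -0.10, -0.23 and -0.04.

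The difference between the 365 nm effect and the 254 nm effect was tested as an interaction. It was called for 3 of 34 members, all with the larger effect at 365 nm, where 9.99% of all features were called in that direction and 7.09% in the other. The genes were ATP5F1A at 2.84 (SE 0.622, adjusted p 0.00105), SDHC at 2.23 (SE 0.476, adjusted p 0.000782) and UQCRC2 at 2.20 (SE 0.514, adjusted p 0.00221). The member share called is close to the background. The median difference was 1.07 over the members, with 32 above 0 and 2 below, and -0.15 over all features. These medians were 1.00 and -0.18 with the length trend removed, and 0.04 and -1.18 on library totals. They describe genes that share the same libraries and were not tested as a set. Without library A of 4SU cells ATP5MG and COX6C were added, and without library A of untreated cells UQCRB and ATP5F1C were. UQCRB was also added without library B of 254 nm cells. Shares of all features called in those fits are not given here. On library totals ATP5F1A alone was called, with the larger effect at 365 nm. There 3.6% of all features were called in that direction and 32.5% in the other. With the length trend removed 9 members were called, where 11.7% of all features were called in that direction and 7.67% in the other.

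HuR (ELAVL1) is an RNA-binding protein that stabilises many mRNAs. ELAVL1 had 638 tags in the HuR siRNA library, against 1905 in the GFP siRNA library, a log2 ratio of -1.53 (95% exact counting interval -1.66 to -1.40). With 1 library each this pair has no replicate check and no test, and intervals cover counting error only. Member transcripts took 0.814% of tags in the HuR siRNA library, against 0.629% in the GFP siRNA library. The median log2 ratio was 0.48 over 35 members, 33 of them above 0, against 0.01 over all features, and on library totals it was 0.38. The weighted median transcript length was 2674 nt in the HuR siRNA library, against 3020 nt in the GFP siRNA library, and ribosomal protein genes took 7.19%, against 4.98% of tags; their part in the ratios was not tested.

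Complex IV had the highest median ratio, 0.86, against 0.45 in complex II, 0.35 in III and 0.43 in V. COX6A1 had 1354 tags in the HuR siRNA library, against 650 in the GFP siRNA library, a log2 ratio of 1.10 (0.97 to 1.25). ATP5F1D had 715, against 328 (1.17, 0.98 to 1.37). These were the only members past 2-fold, with 4.52% of the 17798 features with at least 10 tags past 2-fold higher and 6.24% lower. The c-ring genes lay close together, at 0.59 for ATP5MC1, 0.64 for ATP5MC2 and 0.62 for ATP5MC3. UQCRC2 went the other way, with 2018 tags in the HuR siRNA library, against 3365 in the GFP siRNA library (log2 ratio -0.69, -0.77 to -0.61), while the other core gene UQCRC1 had 2899, against 2357 (0.35, 0.27 to 0.43). The interval lay above 0 for 30 members and below 0 for UQCRC2, and covered 0 for SDHC, ATP5F1A, ATP5F1B and ATP5F1C. Over the 17798 features the interval lay above 0 for 27.3% and below 0 for 28.3%.

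**Figure D5:**
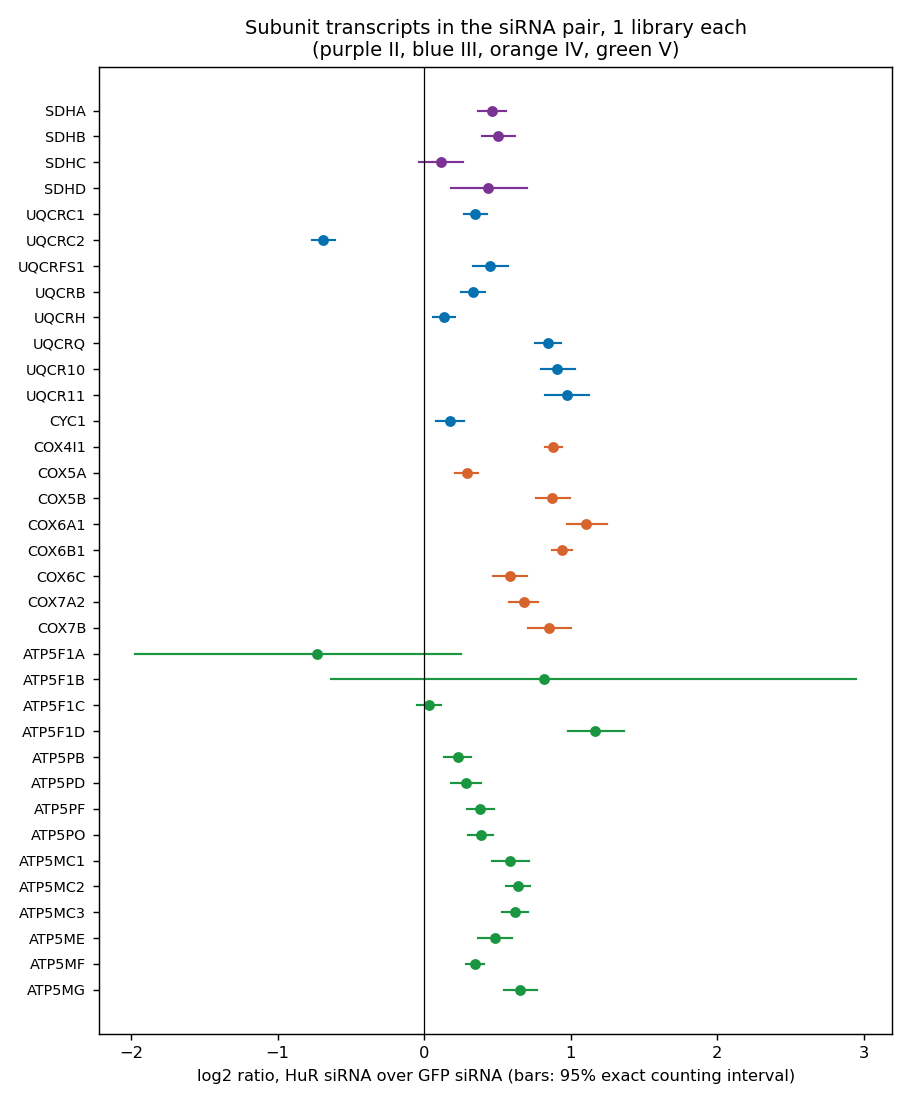
Log2 ratio of each listed subunit, HuR siRNA library over GFP siRNA library, with 95% exact counting intervals and 1 library per siRNA. All complex IV genes lie above 0, UQCRC2 lies below 0, and the wide bars of ATP5F1A and ATP5F1B reflect 5 to 22 tags.

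Other genes of the pathway were read from lists. Of 15 further subunits and paralogues, 9 were listed and 7 tested, and all 7 rose after 365 nm and 6 after 254 nm, where 26.1% and 25.2% of all features were called higher. Once the length trend was removed, 6 were called higher after 365 nm, and 3 higher and 1 lower after 254 nm (COX7A2L at -1.02). They included the complex III paralogue UQCRHL at 3.74 and 2.42, the ATP synthase subunit ATP5MK at 3.35 and 2.54, cytochrome c (CYCS) at 1.44 and 1.26, and COX7A2L, an assembly protein of respiratory supercomplexes, at 1.83 and 0.39, the last not called after 254 nm. UQCRHL is a near copy of UQCRH, so its tags are uncertain. Of the genes encoded in mitochondrial DNA that were looked up, 0 of 6 were listed.

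Assembly factors build the complexes without remaining in them. Of 43 named, 37 were tested: 21 rose and 1 fell after 365 nm, with a median log2 fold change of 0.94, and 23 rose and 2 fell after 254 nm, with a median of 1.13. Over all features 26.1% were called higher and 33.8% lower after 365 nm, and 25.2% and 28% after 254 nm. With the length trend removed 14 factors were called higher and 4 lower after 365 nm (median 0.38), and 11 higher and none lower after 254 nm (median 0.57). UQCC5 and UQCC2, assembly factors of complex III, were highest after 365 nm at 3.58 and 3.36. The complex IV factor COA7 fell by 1.77 on the log2 scale (adjusted p 0.000658) and TMEM242, an ATP synthase factor, was at -1.05 and not called. The 2 that fell after 254 nm were LYRM7 at -1.25 and LRPPRC at -1.56, named after their values were seen. Neither was called with the length trend removed (0.07 and -0.17).

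The nuclear regulators are transcription factors, coactivators and mitochondrial DNA maintenance genes. Of 14 named, 13 were tested: 1 rose and 6 fell, with a median of -1.09, and after 254 nm 4 rose and 2 fell, with a median of -0.20. These shares stand beside the 26.1% higher and 33.8% lower of all features after 365 nm and the 25.2% and 28% after 254 nm. The coactivator PPRC1 fell by 2.49 and the transcription factor NRF1 by 2.25 on the log2 scale after 365 nm. The ETS factor GABPA rose by 1.60 and the mitochondrial DNA polymerase gene POLG was at -0.12, not called. After 254 nm GABPA, TFB1M, POLRMT and ESRRA rose and TFAM and YY1 fell. TFB1M (-0.0027) and ESRRA (0.63) were not called with the length trend removed, and there POLG (0.88) and TWNK (0.87) were called higher. With 4SU alone, TWNK rose by 1.08, COX19 rose by 1.23 and LRPPRC fell by 1.54, and no other regulator or assembly factor was called. This was 1 of 13 tested regulators higher, and 1 of 37 tested assembly factors higher and 1 lower. Over all features 3.85% were called higher and 3.69% lower. TWNK, COX19 and LRPPRC were named after their values were seen. PPRC1 had 19 and 23 tags in 4SU+365 nm cells, against 333 and 597 in 4SU cells. NRF1 had 6 and 8 tags in 4SU+365 nm cells, against 97 and 161 in 4SU cells.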

How the data were processed

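Per the file headers, each library's file gives per transcript the expected count of tags, the length and the authors' deposited expression, as tags per 100 nt of transcript per 1000000 tags, an RPKM-like unit. Aligner, build and annotation: not given in the sources used here. Accessions were matched to symbols through RefSeq and GENCODE tables (15886 and 134 of 25005 transcripts; 8985 stayed unnamed) and summed per gene, which gave 24994 features. Fractional counts mark tags split between transcripts, which touches SDHA, SDHC, UQCRB, UQCRH, UQCRQ, COX6C, COX7B, ATP5PB, ATP5PD, ATP5MF and ATP5MG; their values are uncertain.

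Deposited expected counts of the 8 libraries without siRNA were rounded and fitted together in edgeR 4.0.16 under R 4.3.3, by quasi-likelihood with a mean per group, TMM factors (0.372 to 1.76) and filterByExpr, which left 13731 features with 4 residual and 40 prior degrees of freedom. Tests were two-sided, adjusted by Benjamini-Hochberg over all features and called at 0.05. Dividing a fold change by the root of its F statistic gave its SE. The length trend was a lowess curve (span 0.3) of log2 level on log2 length per library, used as an offset. The siRNA log2 ratios used TMM factors, a prior count of 2 and exact 95% intervals, for counting error only; 3 tags equal 0.333 to 1.34 tags per 1000000. Alternatives were DESeq2 1.42.0, other scalings and filters, the compared groups alone, a replicate block, unsummed or unrounded counts, a threshold of 0.01 and each library left out. The fit was also run on simulated data in which few features changed in 1 group, as many up as down. Its outcome is not given here. Those data had no length trend between groups, so the run does not bear on the choice of scale.

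The members and lists were chosen with earlier results of these data known. Values in every library are given for the highest and lowest member by mean CPM in each complex, the highest and lowest fold change in the first 3 comparisons, members not called where most were, and the c-ring genes. For each further list, the 2 highest and 2 lowest after 365 nm are named. Promoter motifs were chosen after values were seen.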

Additional observations from a re-analysis of the deposited data

Results flagged for a closer look

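The effect of crosslinking differed between the comparisons for 3 subunits in the interaction test of edgeR: each changed more with 365 nm light in 4SU cells than with 254 nm light in untreated cells. The log2 difference of the effects was 2.84 for ATP5F1A (adjusted p over 19 alternatives up to 0.0357), 2.23 for SDHC (up to 0.0809) and 2.20 for UQCRC2 (up to 0.0875), where the last 2 missed the threshold on library totals. The 3 of 34 stand beside 9.99% of all features called in that direction, a share close to that of the members. ATP5F1A rests on 12 to 145 tags in any library and on 1 listed accession, which may not hold all tags of the gene.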

How the results depend on the processing

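Over 4046 values of members under the alternatives, 3827 kept direction and side of the threshold, 126 lost a call, 76 gained one and 17 reversed; 136 changes of sign where neither value was called were counted as no change. On library totals, log2 fold changes reversed after 365 nm for SDHA (-0.21), SDHD (-1.79) and UQCRFS1 (-0.84), with 2 members called lower, and for the whole procedure against untreated cells for SDHA (-0.60), SDHB (-0.20), SDHD (-1.61) and UQCRFS1 (-0.87), with 2 called lower. After 254 nm 1 was called lower. Between crosslinked groups 2 were called higher and 3 lower, and the interaction held 1. With the length trend removed, and with a replicate block besides, UQCRFS1 was at -0.093 and -0.10 after 365 nm, -0.19 and -0.18 after 254 nm and -0.33 and -0.32 for the whole procedure. ATP5F1C was at -0.38 and -0.37 and SDHD at -1.17 and -1.18 after 254 nm. With the length trend removed 14 members were called higher and 1 lower after 254 nm, and 9 higher in the interaction; with the block besides, 1 was lower after 254 nm, 1 lower with 4SU alone and 10 higher in the interaction. DESeq2 gave 12 and RLE factors 6 in the interaction, and a threshold of 0.01 gave 9 between crosslinked groups. The cause of these changes was not tested. Shares of all features called with a replicate block, DESeq2, RLE factors or that threshold are not given here. Those counts of members therefore have no background to be read against.

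Leaving out each library gave 0 to 2 members called higher with 4SU alone, 4 to 23 between crosslinked groups and 3 to 5 in the interaction. It gave 32 to 33 after 365 nm and 26 to 29 after 254 nm. A group left with 1 library was assumed to vary like the others, and shares of all features called in these fits are not given here. Libraries of the same letter had deviations correlated by -0.08 to 0.35, highest between 4SU and untreated cells. These values do not settle whether libraries of a letter are paired. The replicate block alone called 33 after 365 nm, 29 after 254 nm, 0 with 4SU alone and 23 between crosslinked groups.

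The member share, by tags outside ribosomal protein genes, was 3.19% in 4SU+365 nm cells, against 0.911% in 4SU cells. It was 2.58% in 254 nm cells, against 0.793% in untreated cells, and 0.878% in the HuR siRNA library, against 0.662% in the GFP siRNA library. Per length it was 3.27% in 4SU+365 nm cells, against 1.8% in 4SU cells, 2.999% in 254 nm cells, against 1.71% in untreated cells, and 1.8% with HuR siRNA, against 1.54% with GFP siRNA. Of 70 siRNA values under 2 alternatives, 51 stayed within their counting interval and 19 moved out of it. All 19 moved on library totals, where 16 stayed, and all 35 stayed with a prior count of 0.5. SDHD and ATP5F1A had the fewest tags of the tested members, and ATP5F1B, COX7C, COX8A and ATP5F1E gave no test.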
